A study of Xenopus laevis with 2 samples.

Results

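The meis genes encode homeodomain transcription factors of the TALE class, a group set apart by an extended loop in the DNA-binding domain. Meis proteins bind DNA together with Pbx proteins, their TALE partners, and with Hox proteins, which give cells their position along the body axis. Meis1 is known in vertebrates for roles in blood, heart and eye development, Meis2 for roles in the neural crest and limb, and Meis3 in Xenopus for the patterning of the hindbrain. X. laevis is an allotetraploid frog, so that many genes exist as a copy on an L chromosome and a copy on an S chromosome.

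The genes with the base symbols meis1, meis2 and meis3 were taken from a RefSeq gene table of the X. laevis assembly v10.1. Of the 6 symbols looked for, 4 were listed among 44456 genes, namely meis1.S, meis2.L, meis3.L and meis3.S. The symbols meis1.L and meis2.S were not found there, also not as synonyms, so no gene was analysed under these symbols. The symbol of meis2.L is taken up below together with its neighbours. The family was chosen by the fold enrichment of a single peak within meis1.S, which was among the 3 highest of all peaks found in both replicates. The values of that peak are therefore given as a description.

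Accessible DNA was measured by CATaDa, in which a free Dam methylase adds methyl groups to adenine of GATC sites in open chromatin. Wild-type embryos of 1 cell received 2.3 ng of a Dam-only construct (Dam mRNA, per the labels). Whole embryos were taken at 4.5 h of development, when they had 256 cells and had not yet activated their genome. The 2 replicates formed a single group, each of 500 pooled embryos and described by the study as biologically independent. Cell types within an embryo cannot be told apart. Non-injected embryos were not analysed here, and with 1 group no test between conditions was possible. Replicate 1 held 325974 broad peaks and replicate 2 held 277551. The lists carry no read counts, so depth is unknown and a missing peak does not show closed DNA. The density of GATC sites was not known either. It was not accounted for in the peak densities, differences and stretches without peaks given below.

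Within the meis genes and 10 kb on each side, 51 peaks lay in replicate 1 and 47 in replicate 2, a mean of 49 ± 2.83 (SD, n = 2). A peak was called recurring when it shared at least 1 bp with a peak of the other replicate. By this measure 37 peaks of replicate 1 (72.5%) and 36 of replicate 2 (76.6%) recurred. Over all peaks of the series, these shares were 66.6% and 77.8%, and over peaks in protein-coding gene bodies they were 66.1% and 77.5%. The share at the meis genes was thus above that of all peaks in replicate 1 and below it in replicate 2.

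**Figure D1:**
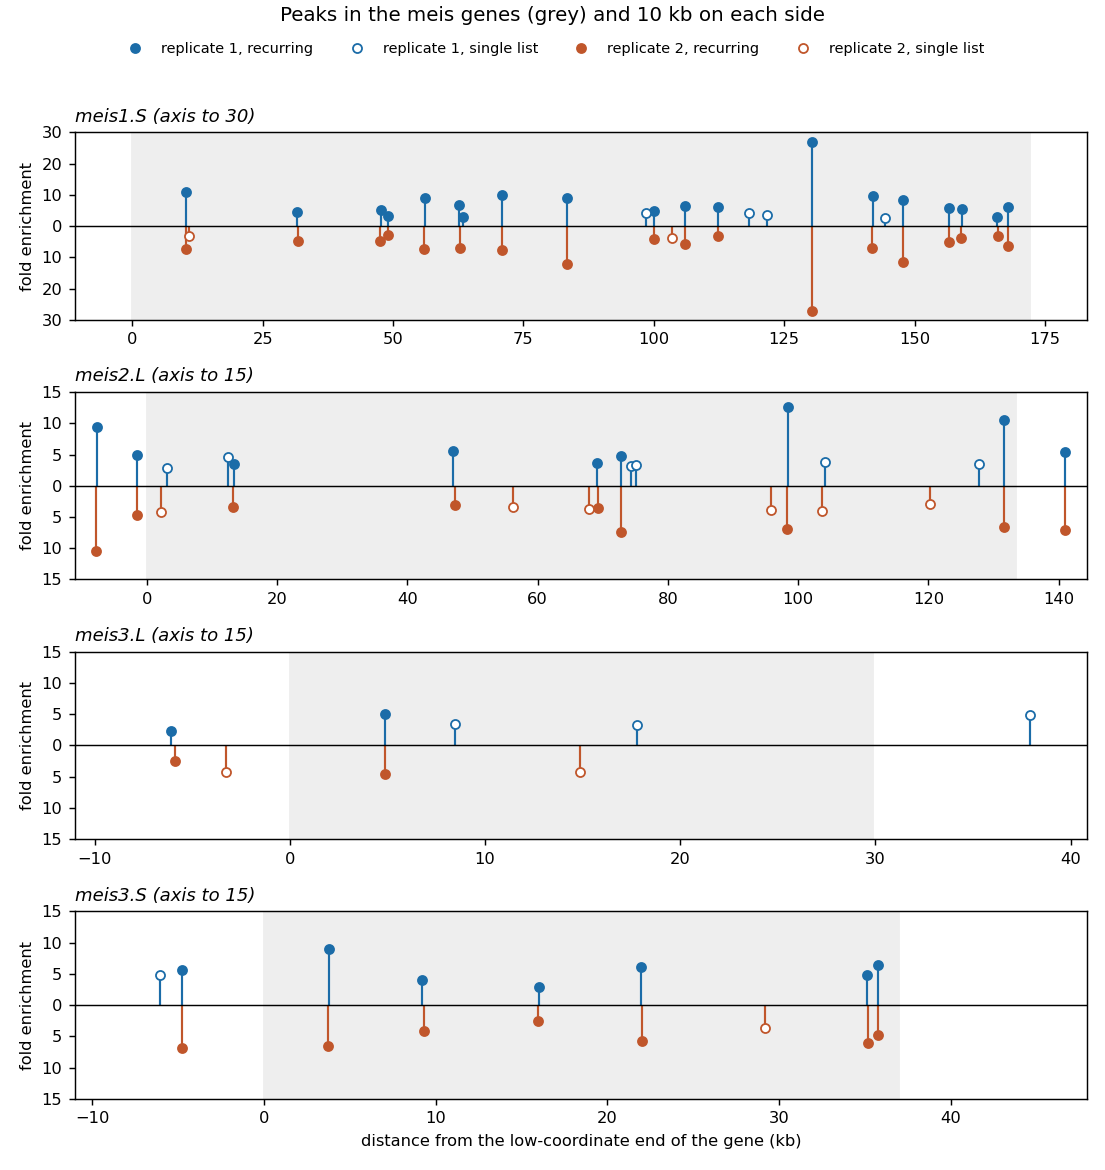
Peaks in the 4 meis genes, plotted by distance from the low-coordinate end of the gene in kb (x axis) and by fold enrichment (y axis, replicate 1 upwards and replicate 2 downwards, to 30 for meis1.S and to 15 for the others). Grey marks the gene body, filled points are recurring peaks and open points are peaks of a single list. The peak of meis1.S at 130 kb stands at 27.1 and 27.2, and no peak lies in either flank of that gene.

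At meis1.S (gene ID 399305; 5S, 2375087 to 2547253), a gene of 172 kb, 23 peaks lay in the gene body in replicate 1 and 20 in replicate 2. Of these, 19 and 18 recurred. The peak that chose the family lay at 2505276 to 2505622 in replicate 1 and at 2505274 to 2505624 in replicate 2. Its fold enrichment over the local background was 27.1 in replicate 1 and 27.2 in replicate 2. Its -log10 q was 688 and 909. Both lists thus placed it on the same centre, with edges that differed by 2 bp. It lay 130 kb from the low-coordinate end of the gene and 41.8 kb from the other end. The gene table gives neither strand nor exons, so that the nearest start site and the exon or intron holding each peak were not determined.

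By the geometric mean of fold enrichment over both replicates, this peak was the second of 216946 recurring peaks, at 27.2. The peak above it, within LOC108708599 on 2L, had 27.4, and the third, on 5L outside genes, had 27.1. Just outside these 3 stood a peak on 2S with 27.0. Those at ranks 5 and 6, on 1S and 4S, had 26.9 and 26.7, and the peaks at ranks 3 to 6 all lay outside annotated genes. Within replicate 1 alone the meis1.S peak was at rank 8 and within replicate 2 alone at rank 2. Ranked by -log10 q it stood at 59. Fold enrichment differed little between the highest ranks, and some peaks ranked below that of meis1.S had a far higher -log10 q. Its rank is thus a place by fold enrichment only. The coding genes next closest to meis1.S in their best recurring peak, besides LOC108708599, were LOC108712716 (26.6), gria2.S (26.6), a glutamate receptor subunit, hdac9.L (26.0), a histone deacetylase, and LOC108710640 (25.6).

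The width of the peak was shared by many of the highest peaks. It spanned 347 bp in replicate 1 against 351 bp in replicate 2, as did all 10 recurring peaks at ranks 1 to 10. This pair of widths was found in 63 of the upper 100 recurring peaks and in 256 of the upper 1000 (25.6%). Over all recurring peaks it was found in 1801, or 0.83%. Of these 1801, 28.4% lay in protein-coding genes, as the meis1.S peak did, against 46.2% of all recurring peaks. Width and fold enrichment come from the same calls, so this is a description. No other recurring peak of the 4 meis genes had this pair of widths.

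**Figure D2:**
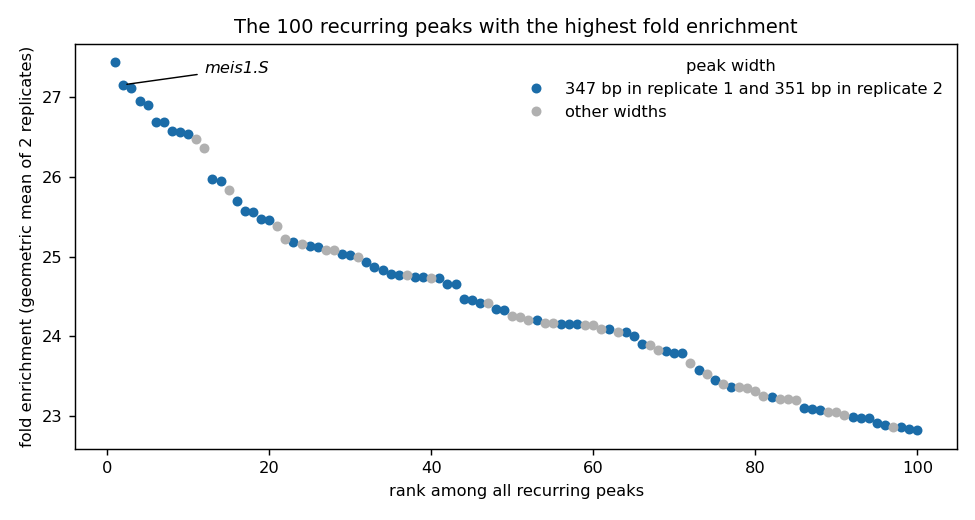
Fold enrichment (y axis, geometric mean of 2 replicates) of the 100 highest recurring peaks by rank (x axis), each point 1 peak. Blue points, 63 of the 100, span 347 bp in replicate 1 together with 351 bp in replicate 2, and the peak of meis1.S is at rank 2.

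The other recurring peaks of meis1.S were far lower. Their fold enrichment ran from 2.92 to 10.9 in replicate 1 and from 2.96 to 12.2 in replicate 2. The next highest, at 2458269 to 2458587 in replicate 1, had 9.01 and 12.2, and the best peak exceeded it 2.59-fold in the geometric mean. That ratio includes the peak by which the family was chosen and is a description. The widest recurring peak of the gene in replicate 1, at 2531322 to 2532017, spanned 696 bp and 822 bp and had 5.91 and 5.21 in fold enrichment. The widest in replicate 2, at 2430574 to 2431520, spanned 654 bp and 947 bp, with 8.97 and 7.20, and so was also among the higher peaks of the gene.

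Peaks of meis1.S in the upper part of the genome-wide ranking were not limited to the best one. Of its other 18 recurring pairs, 4 were in the upper 10% of all recurring peaks by geometric mean, against a background of 10%. These were the peaks at 2385267 to 2385604 (10.9 and 7.34), 2445862 to 2446203 (9.89 and 7.75), 2458269 to 2458587 and 2522610 to 2523017 (8.23 and 11.6). In the upper 50% were 12 of 19, the best peak included, against a background of 50%. The median geometric mean over the 19 pairs was 6.14, and over all recurring peaks it was 4.88.

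Peaks were spread along the whole gene body of meis1.S. From the low-coordinate end, successive stretches of 20% of its length held 2, 5, 4, 5 and 7 peaks in replicate 1 and 3, 4, 3, 4 and 6 in replicate 2. The last of them held most peaks in both replicates, 6 of them recurring in each. The longest stretch without a peak ran from 10.5 to 31.3 kb in replicate 1 and from 11.1 to 31.4 kb in replicate 2. Neither flank of 10 kb held a peak in either replicate. Of all protein-coding genes, 4.18% had such empty flanks, and of the 1131 genes within 25% of the length of meis1.S, 63 did. The neighbouring genes were distant, with spred2.S, an inhibitor of Ras signalling, 323 kb away and etaa1.S, an activator of the replication checkpoint, 270 kb away on the other side.

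At meis2.L (gene ID 398167; 5L, 29958890 to 30092317), a gene of 133 kb, 15 peaks lay in the gene and its flanks in each replicate, 12 of them in the gene body. In each replicate 9 recurred (60%), which was below the 66.6% and 77.8% of all peaks. The peak with the highest geometric mean lay outside the gene body. It stood before the low-coordinate end, at 29950803 to 29951802 in replicate 1, with a fold enrichment of 9.41 and 10.5. Within the body, the highest lay at 30057145 to 30057494 in replicate 1, with 12.5 in replicate 1 and 6.94 in replicate 2. These values differed by a factor of 0.554, while the flanking peak differed by a factor of 1.12.

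The high-coordinate end of meis2.L was bordered by recurring peaks on both sides. Inside the gene, 1.85 kb from its end, a peak at 30090310 to 30090629 had 10.5 in replicate 1 and 6.68 in replicate 2. Beyond the end, a peak at 30099646 to 30100036 had 5.43 and 7.14. It lay within the lncRNA gene LOC108716582, which begins 99 bp past meis2.L and is the only other annotated gene in the windows of the 4 genes. The widest recurring peak of the body, at 30005303 to 30006411, spanned 1109 bp in replicate 1 but 349 bp in replicate 2, with a fold enrichment of 5.56 and 3.06. The longest stretch without a peak was 32.7 kb in replicate 1 and 33.8 kb in replicate 2, and both began about 13 kb from the low-coordinate end. Among peaks of a single list, that of replicate 1 at 30062767 to 30063384 and that of replicate 2 at 30062380 to 30062728 missed each other by 38 bp.

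The neighbours of meis2.L matched those of meis1.S in reverse order. The nearest named coding genes of meis2.L were etaa1.L, 338 kb towards low coordinates, and spred2.L, 466 kb towards high coordinates. Of the 8 nearest named coding genes on the spred2 side, 6 had the same base symbol at both genes, and on the etaa1 side 2 of 8. Read without the reversal, none of the 8 were shared on either side. The table thus lists a meis2 symbol on 5L at the place where 5S carries meis1.S, and whether this symbol is the right one was not tested. Both genes are called here by their listed symbols, and their values are given side by side. The symbol meis2.L thus names a listed entry, not an established meis2 gene.

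Read from the spred2 side, peak positions of both genes were set against each other as percent of gene length. Of the 6 recurring body peaks of meis2.L in replicate 1, 4 stood within 1.5 percent of gene length of a peak of meis1.S, and the distance ranged from 0.262 to 4.63. With 23 peaks along meis1.S such short distances are common at any position, and nothing is read from them. The best peak of meis1.S stood at 75.7% of its length, and meis2.L had no peak near that percent position. Whether it has a counterpart in meis2.L was not determined. The matching place of meis2.L fell within its longest stretch without peaks, 18.7 kb from the peak on one side and 14.01 kb from that on the other in replicate 1, and 19.0 and 14.7 kb in replicate 2. Scaling by gene length is a coarse match, since no alignment of the genes was used.

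**Figure D3:**
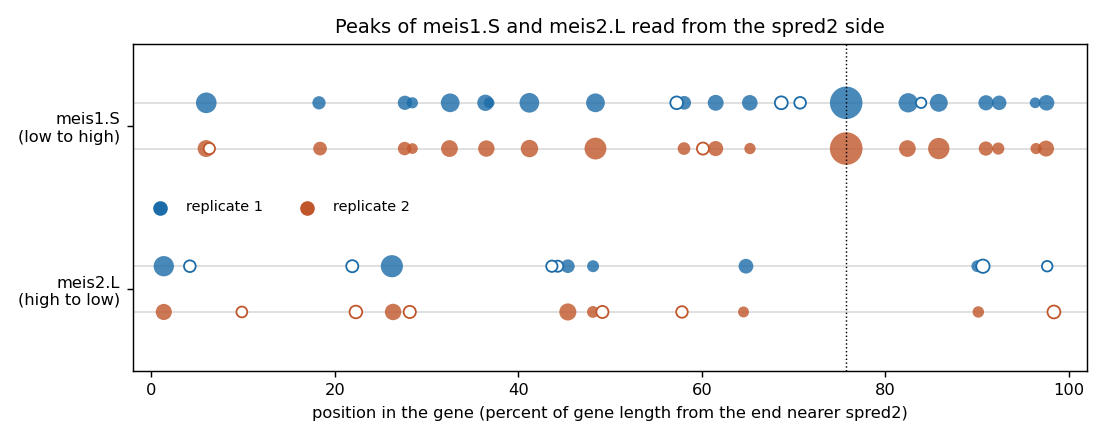
Body peaks of meis1.S and meis2.L by position in percent of gene length from the end nearer spred2 (x axis), with replicate 1 (blue) above replicate 2 (orange) for each gene. The area of a point is proportional to fold enrichment, filled points recur, open points belong to a single list, and the dotted line marks 75.7%, where meis2.L has no peak in either replicate.

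At meis3.S (gene ID 379219; 8S, 85747148 to 85784104), a gene of 37.0 kb, 8 peaks were present in each replicate and 7 recurred in each (87.5%). Of these, 6 lay in the gene body. The highest, at 85750615 to 85751223 in replicate 1, had a fold enrichment of 8.99 in replicate 1 and 6.51 in replicate 2 and stood 3.77 kb from the low-coordinate end. Its width was 609 bp in replicate 1, against 710 bp in replicate 2. The widest recurring peak was that in the low flank, at 85742048 to 85742734, with 687 bp and 710 bp and a fold enrichment of 5.64 and 6.94. A pair of peaks lay within 2 kb of the high-coordinate end. That at 85782067 to 85782486 had 4.75 and 6.02, and that at 85782749 to 85783058 had 6.35 and 4.73. The remaining 3 body peaks ran from 2.61 to 6.08 over both replicates.

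At meis3.L (gene ID 398093; 8L, 71373549 to 71403413), a gene of 29.9 kb, 5 peaks were present in replicate 1 and 4 in replicate 2, and 2 recurred in each. Only 1 recurring peak lay in the gene body, at 71378249 to 71378558 in replicate 1, with a fold enrichment of 5.01 and 4.50. It stood 4.86 kb from the low-coordinate end. The other, in the low flank at 71367158 to 71367789, had 2.32 and 2.52 and was the widest of the gene, with 632 bp in replicate 1 and 349 bp in replicate 2. It was among the lowest 1% of all recurring peaks, at rank 216475 of 216946. The part of the gene beyond 17.9 kb held no peak in either replicate.

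The copies of meis3 on 8L and 8S were the one pair listed under the same base symbol, and they lie in the same order among their neighbours. The nearest named coding genes are slc8a2, a sodium-calcium exchanger, on the low side and psmd8, a proteasome subunit, on the high side of both. The gene body of meis3.L held 3 peaks in replicate 1 and 2 in replicate 2, and that of meis3.S held 6 and 7. Per 10 kb of gene body this was 1.00 and 0.670 in meis3.L and 1.62 and 1.89 in meis3.S. The L copy was lower by 0.92 ± 0.43 peaks per 10 kb (mean of 2 replicates ± SD, n = 2). This rests on few body peaks per copy, and its place among other L and S pairs is given below. Over gene body and flanks together, the difference was -0.50 per 10 kb. With recurring peaks only, the density was 0.335 in meis3.L and 1.62 in meis3.S in each replicate. Recurring peaks are shared by both lists, so these equal values are not 2 separate measurements. Peaks covered 3.11% and 2.45% of meis3.L and 7.04% and 8.73% of meis3.S.

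The difference between the meis3 copies was set beside 3810 other L and S pairs of coding genes in which both copies are at least 20 kb long. The median L minus S difference of those pairs was -0.06 peaks per 10 kb in each replicate. A difference at or below that of meis3 was found in 17% of them in replicate 1 and in 2.76% in replicate 2. With recurring peaks, which are nearly the same set in both replicates, these shares were 1.52% and 1.47%. For meis2.L minus meis1.S, the difference was -0.44 and -0.26 peaks per 10 kb, and 25.2% and 35.5% of the pairs were at or below it. With recurring peaks it was -0.65 and -0.60, with shares of 11.3% and 13.7%. In both comparisons the gene on the S chromosome had more peaks per length, and whether meis1.S is the S copy of meis2.L was not tested. These are ranks within the same libraries, with no test, and 2 pairs of 1 family are not replicates. The 3810 pairs were not matched in length to the meis genes, and density varied more among shorter genes. Among genes of similar length to meis3.L, the 5th to 95th percentile in replicate 1 ran from 0.336 to 2.29 peaks per 10 kb. Among those of similar length to meis1.S it ran from 0.606 to 1.70. The shares of the shorter and the longer pair are therefore not compared.

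As percent of gene length, the recurring body peak of meis3.L stood at 16.3% in replicate 1, and the nearest peak of meis3.S at 10.2%. In distance from the low-coordinate end, these peaks stood at 4.86 kb and 3.77 kb. No alignment was used, so whether they match was not determined. A single-list peak of meis3.L at 59.5% stood where meis3.S had a recurring peak, also at 59.5% of its length. With so few peaks in meis3.L, these positions are listed only as values.

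Peak density was then compared with protein-coding genes within 25% of the length of each meis gene. Over the 4 gene bodies together it was 1.18 peaks per 10 kb in replicate 1 and 1.10 in replicate 2, a mean of 1.14 ± 0.0570 (SD, n = 2). Over all protein-coding genes, the pooled density was 1.197 and 1.017. Peaks covered 4.97% and 5.17% of the 4 bodies. Among the genes of similar length, a median of 43.6% (over the 4 meis genes, mean of both replicates) were at least as dense. That median describes no single gene of the family. As means of both replicates, the shares were 16.3% for meis3.S, 26.4% for meis1.S, 67.0% for meis2.L and 69.7% for meis3.L.

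The single genes differed in their place. For meis1.S, with 1.34 and 1.16 peaks per 10 kb, 27.5% of 1131 genes in replicate 1 and 25.3% in replicate 2 were at least as dense. With recurring peaks, at 1.10 and 1.05 per 10 kb, these shares were 10.8% and 14.1%. When only the upper 50% of each list by fold enrichment was used, the share was 6.59% on average. That filter uses the value by which the family was chosen and keeps the chosen peak, so this share is a description. Under the same filter the average share was 9.02% for meis3.S, 86.2% for meis2.L and 72.4% for meis3.L. For meis3.S, 25.2% and 7.4% of 4717 genes were at least as dense, and with recurring peaks 6.02% and 5.79%. Both genes thus stood higher among their peers by recurring peaks than by all peaks. The counts for meis1.S include the peak that chose the family, and shares without it were not computed. Recurring peaks are shared by both lists, so here and below their shares by replicate are not separate measurements.

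The other copies stood in the lower part. For meis2.L, with 0.899 peaks per 10 kb in each replicate, 76.2% and 57.7% of 1542 genes were at least as dense. With recurring peaks, at 0.450 per 10 kb, the shares were 86.6% and 86.4%. For meis3.L, 64% and 75.5% of 5153 genes were at least as dense, and with recurring peaks 84.1% in each replicate. In order of mean density, meis3.S (1.76 ± 0.191) was followed by meis1.S (1.25 ± 0.123), meis2.L (0.899, equal in both replicates) and meis3.L (0.837 ± 0.237; SD, n = 2). The neighbours meis2.L and meis3.L did not differ beyond their spread. How often other coding genes keep such an order in both replicates was not counted, so nothing is read from the order. The meis3 copies held few body peaks, from 2 to 7.

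**Figure D4:**
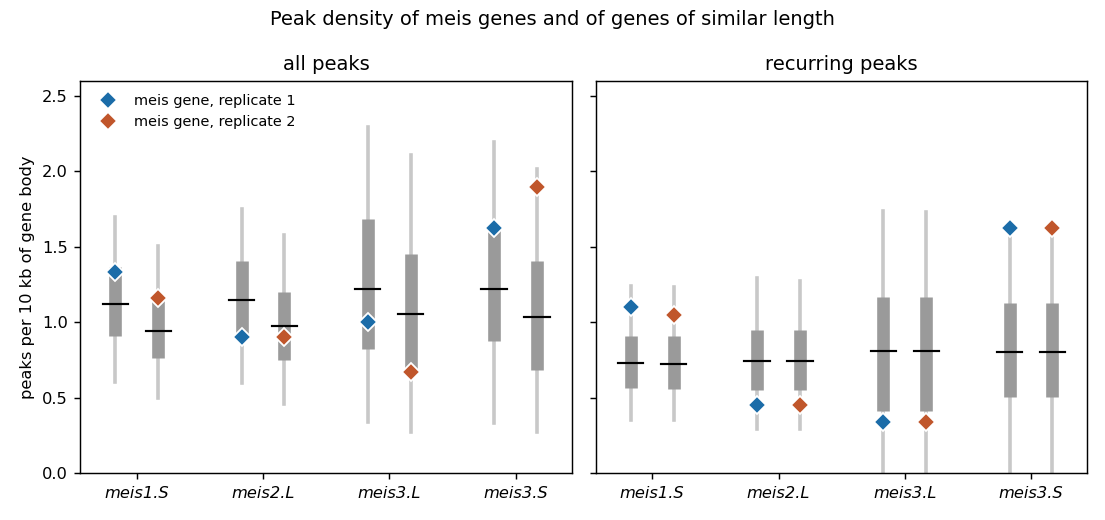
Peaks per 10 kb of gene body (y axis) of the 4 meis genes (x axis) for all peaks (left) and recurring peaks (right), diamonds in blue for replicate 1 and orange for replicate 2. Behind each diamond, the thin bar spans the 5th to 95th percentile of coding genes within 25% of its length, the thick bar the middle 50%, and the line their median. By recurring peaks, meis1.S and meis3.S lie above the thick bar and meis2.L and meis3.L below it.

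Gene bodies and flanks did not relate in the same way in all 4 genes. In meis1.S the body held 1.34 and 1.16 peaks per 10 kb and the flanks none. In meis2.L the flanks held 1.5 per 10 kb in each replicate, above the 0.899 of the body. In meis3.L the flanks held 1.00 per 10 kb in each replicate, against 1.00 and 0.670 in the body. In meis3.S the flanks held 1.00 and 0.5, against 1.62 and 1.89. Pooled over the genes, the body exceeded the flanks by 0.329 ± 0.0314 peaks per 10 kb (SD, n = 2), but by 0.00601 with only the upper 50% of peaks by fold enrichment. The pooled body density weighs genes by length, while the flanks count equally for each gene. The SD is the spread of the replicates, not of the genes. By gene, the mean difference was 1.25 in meis1.S, 1.01 in meis3.S, -0.163 in meis3.L and -0.601 in meis2.L. A flank of 10 kb holds few peaks, 7 and 6 over all genes.

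Recurring peaks at the meis genes were compared between the replicates. The ratio of replicate 2 to replicate 1 in fold enrichment ran from 0.524 to 2.36 over the 37 pairs, with a median of 0.934. It was below 1 in 22 pairs and above 1 in 15. Over all 216946 pairs it was below 1 in 111084 and above 1 in 105859. The highest ratio belonged to a peak of meis1.S at 2438337 to 2438646 in replicate 1, which touched a wider peak of replicate 2 by 1 bp. Spearman's rho across the 37 pairs was 0.720, and across all pairs it was 0.621. The 37 pairs include the peak that chose the family, and they hold only 36 different peaks of replicate 2. Peaks of 1 pair of libraries share those libraries and are not independent. For these reasons rho is a description, and the 2 values of rho are not compared.

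**Figure D5:**
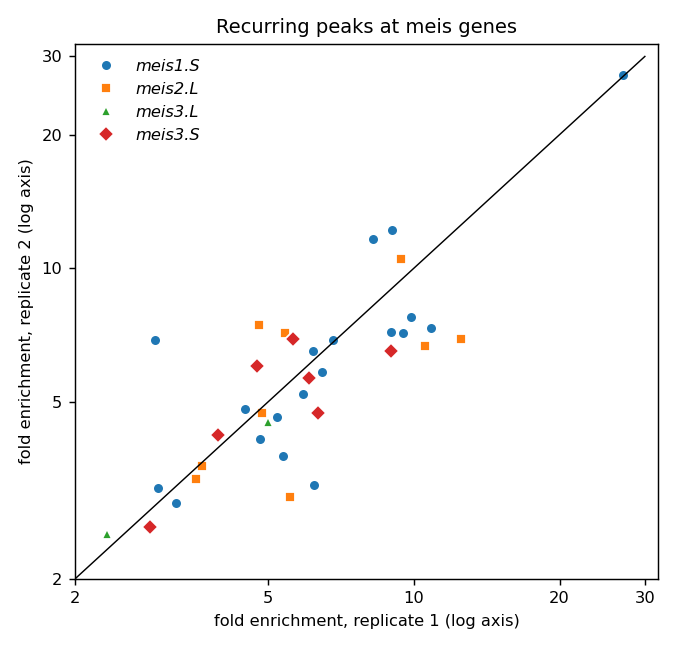
Fold enrichment of the 37 recurring pairs at the meis genes in replicate 1 (x axis) and replicate 2 (y axis), both on log axes, 1 symbol per gene, with the line of equal values. The peak of meis1.S at 27.1 and 27.2 lies on the line, apart from all others, which do not exceed 12.5 in either replicate.

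Pooled over the meis genes, peaks of a single list had a lower median fold enrichment than recurring peaks, as over the whole series. Within meis3.L in replicate 2 their median was higher, at 4.23 against 3.51. Over all meis genes there were 14 single-list peaks in replicate 1 and 11 in replicate 2. Their fold enrichment reached at most 4.83 and 4.29, and their medians were 3.49 and 3.75, against 5.64 and 5.76 in recurring peaks of the same genes. Over all single-list peaks of the series, the medians were 3.65 and 3.73, against 4.92 and 4.87 in all recurring peaks. Of the 14, 9 had the smallest width of their list, 310 bp, and of the 11, 10 had 349 bp. Over all single-list peaks of the series, 66.3% and 67.7% were of smallest width. The widest single-list peaks of replicate 1, both in meis2.L, spanned 618 and 542 bp. Of these 25 peaks, 4 in replicate 1 and 3 in replicate 2 lay within 1 kb of a peak of the other list. That share was not counted over all single-list peaks of the series, so nothing is read from it.

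The other TALE homeobox genes served as the wider class. Of 15 base symbols looked for, 13 were found, with 25 genes in all. They include the pbx genes, whose products are the DNA-binding partners of Meis, the pknox genes, which are the closest relatives of meis, the irx genes of neural patterning, the tgif repressors and mkx. Their median density was 0.956 peaks per 10 kb in each replicate, against 1.17 and 0.965 over all protein-coding genes. Their pooled density was 1.01 and 0.874, against 1.18 and 1.10 in the meis genes. Pooled densities weigh genes by length. The longest TALE genes, pknox2.S (405 kb) and pknox2.L (382 kb), weigh most in the first, and meis1.S weighs most in the second. No difference between the classes is read from them. A recurring peak lay in the body of 18 of the 25, and 4 short genes had no peak in either replicate, namely irx1.L, irx3.L, irx3.S and tgif2.S. All 4 are at most 8.03 kb long. Such shares were not counted over coding genes of all lengths, so nothing is read from these counts.

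Of these genes, 8 are at least 20 kb long and can be set beside the meis genes. All 8 held a recurring peak, as did 95% of protein-coding genes of that length. By the mean of both replicates, the densest were pbx3.S, with 1.31 and 1.25 peaks per 10 kb, and mkx.S, with 1.33 and 1.22. The least dense were pknox2.S, with 0.864 and 0.617, and pknox2.L, with 0.891 and 0.760. None of the 8 reached meis3.S in either replicate. The density of meis1.S lay close to those of pbx3.S and mkx.S, and that of meis2.L between those of pknox2.L and pbx3.S in both replicates. The highest best peak of the 25, in mkx.S, had a geometric mean of 17.02.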

How the data were processed

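The authors processed CATaDa reads with the damidseq pipeline, mapped them to X. laevis v10.1 with bowtie2 and called broad peaks with MACS 3.0.1 on each replicate separately. Whether a control was used, and at which cutoff peaks were called, is not given in the sources used here. The deposited positions are the start and end of each peak, and coordinates are given counting from 1. The deposited score (10 times the -log10 q in whole numbers) was not used. The authors' fold enrichment is a ratio of pileup to background averaged over the peak, and the authors' -log10 p and -log10 q are averages in the same way. These values rank peaks within a list.

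Members, lists and measures were chosen with earlier results of these data known. Peaks were assigned to genes by midpoint. Density is the number of midpoints per 10 kb of gene body. The paper normalized accessibility at promoters to the local density of GATC, which was not done here. Genes of similar length are protein-coding genes on the 18 assembled chromosomes within 25% of the length. Fold enrichments were combined over replicates as the geometric mean. Named genes and peaks were the meis genes with the best and widest recurring peak of each, the peaks at ranks 1 to 6, the 5 coding genes with the best peak beside meis1.S, and the 2 densest and 2 least dense TALE genes of at least 20 kb. Of the 3 L and S pairs planned, 1 was listed, and the comparison of meis2.L with meis1.S, its neighbours and the L and S pairs of other genes were added after seeing the data, as was the table of widths. Planned motif searches in promoters were not run, since no sequence was used here. Values were computed in Python 3.11.15 with pandas 2.3.3, and counting, matching and coverage were tested on simulated data. The alternatives were thresholds on -log10 q and fold enrichment, other windows and overlaps, other length limits, merging and omission of each replicate.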

Additional observations from a re-analysis of the deposited data

How the results depend on the processing

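Depth is unknown, so low peaks cannot be told from noise, and 2 replicates give only a coarse spread. For the main measures, 52 values were recomputed with both replicates. Of these, 33 stayed within 1.5 times (counts) or within 1 SD of the replicates (other values), and 19 moved further. For the L minus S difference in covered percent, only the sign was compared. Most measures cannot be negative. Only the L minus S and body minus flank differences could change sign, and neither did. Alternatives with peaks above the smallest width, without the best meis1.S peak, with a gap of 500 bp allowed for recurrence, and with meis2.L against meis1.S were chosen after seeing the data. No paired analysis was possible because the series holds a single group.

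With the upper 50% of peaks by fold enrichment, the meis windows held 28.5 peaks, of which 89.1% recurred, the density of meis bodies was 0.631 and that of the other TALE genes 0.513 per 10 kb, 3.02% of the meis bodies was covered, and body minus flank was 0.00601. With a -log10 q of at least 2, these were a density of 1.07, a coverage of 4.73% and a difference of 0.387. With recurring peaks only, the densities were 0.846 and 0.613, the coverage 4.02%, and 48.3% of genes of similar length were at least as dense. These settings keep fewer peaks by construction. Peaks above the smallest width gave a density of 0.685 and a share of 47.1%, and merging gave a density of 1.06. A gap of 500 bp gave a recurring share of 78.7%, and flanks of 5 kb a difference of 0.516. Ranked by -log10 q, the meis1.S peak was at 59. By construction, a gap can only keep or raise the recurring share, and a rank by -log10 q orders peaks by another value. The cause of the shift with flanks of 5 kb was not tested.

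Leaving out each replicate in turn gave 47 to 51 peaks, a recurring share of 72.5% to 76.6%, a density of 1.10 to 1.18, a coverage of 4.97% to 5.17%, 41.5% to 45.7% of genes of similar length at least as dense, an L minus S difference of -1.22 to -0.619, a body minus flank difference of 0.306 to 0.351, a rank of 2 to 8 and a TALE density of 0.874 to 1.01. Recurrence needs both lists, so the count of recurring peaks has no such value. Of 28 values for single meis genes against genes of similar length, 16 stayed within 1 SD and 12 moved further.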

Other observations

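The pair of widths of the best meis1.S peak was found in 1801 recurring peaks across all 18 assembled chromosomes, 881 on L and 920 on S. In 1800 of them both replicates placed the peak on the same centre. Their geometric mean of fold enrichment ran from 4.39 to 27.4, with a median of 9.75, whereas the median of all 216946 recurring peaks was 4.88. Of the 316 recurring peaks with a geometric mean of at least 20, 137 had these widths. Midpoints lay in protein-coding genes for 512 of the 1801 (28.4%), against 46.2% of all recurring peaks. A place within a coding gene, as in meis1.S, was thus the less frequent one in both sets, with a lower share at these widths. The pattern was noticed in the data, no sequence was examined, and no explanation was tested.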
